A study of Mus musculus with 12 samples.

Results

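The genes described here are the mouse Hox genes and the 3 Cdx genes, in embryonic stem cells before and during differentiation. They were taken as every gene named by a non-control probe as Hox of cluster a, b, c or d with a paralogue number, or as Cdx1, Cdx2 or Cdx4. That gave 41 genes, 38 of them Hox genes, out of 27975 genes with a probe in the series, and they were read by 53 probes. Hoxc11 was the 1 of 39 mouse Hox genes with no named probe. The study profiled strain 129 mouse embryonic stem cells on 12 one-colour arrays in 6 groups of 2. Undifferentiated cells carry sample titles that name LIF, leukaemia inhibitory factor, the cytokine that holds mouse embryonic stem cells undifferentiated. The other groups are embryoid bodies (EB), which are floating aggregates of differentiating cells, at day 1, day 3 and day 4, and monolayer cultures (ML) at day 1 and day 3. The 2 samples of a group are labelled clone 1 and clone 2, called replicate 1 and replicate 2 below, and the submitters describe independent experiments by different people. No added differentiation agent, transgene or targeted allele is named in the labels, the medium is not given, and p-values measure only the spread between these samples. In bulk RNA, fewer cells that express a gene and less RNA of it per cell cannot be told apart.

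Hox genes encode homeodomain transcription factors that give cells of the trunk their position along the head-to-tail axis. They lie in 4 clusters, and within a cluster genes at the 3′ end (low paralogue numbers) come on earlier and reach further forward in the embryo than genes at the 5′ end (high numbers), an order called collinearity. In embryonic stem cells the clusters are a classic target of Polycomb repression. Cdx1, Cdx2 and Cdx4 are caudal-type homeobox genes of the posterior embryo that act upstream of trunk Hox genes, and Cdx2 also specifies the trophectoderm. Pbx, Meis and Pknox proteins, of the TALE class of homeodomain proteins, bind DNA together with Hox proteins.

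On the arrays the Hoxa probes lay on chromosome 6, while the Hoxb probes spanned chr11:96057368-96228510 (171 kb), the Hoxc probes chr15:102758794-102866583 (108 kb) and the Hoxd probes chr2:74508005-74603059 (95 kb), in build mm9 as the files give them. The promoter windows of 3 genes that were among the largest increases at EB day 4 are shown here as examples of the start sites concerned, from RefSeq (build GRCm38.p6), each from 250 bases before to 50 bases after the annotated start and in the gene's own direction. Capitals mark a match to TGATNNAT, a motif bound by Pbx and Hox proteins together. Windows were Hoxb1 at chr11:96365508-96365807 (plus strand), Hoxd1 at chr2:74762730-74763029 (plus strand) and Cdx2 at chr5:147307200-147307499 (minus strand).
Hoxb1: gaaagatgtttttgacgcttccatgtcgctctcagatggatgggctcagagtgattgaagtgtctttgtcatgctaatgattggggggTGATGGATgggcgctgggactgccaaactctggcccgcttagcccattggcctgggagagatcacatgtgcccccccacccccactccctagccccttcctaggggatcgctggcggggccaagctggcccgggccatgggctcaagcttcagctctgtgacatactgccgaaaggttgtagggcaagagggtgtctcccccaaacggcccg
Hoxd1: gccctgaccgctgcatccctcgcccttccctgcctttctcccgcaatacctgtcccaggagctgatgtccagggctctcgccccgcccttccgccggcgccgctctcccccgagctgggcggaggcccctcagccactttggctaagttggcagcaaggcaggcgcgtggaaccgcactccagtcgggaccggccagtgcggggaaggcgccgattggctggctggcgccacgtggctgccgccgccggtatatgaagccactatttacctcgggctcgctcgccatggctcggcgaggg
Cdx2: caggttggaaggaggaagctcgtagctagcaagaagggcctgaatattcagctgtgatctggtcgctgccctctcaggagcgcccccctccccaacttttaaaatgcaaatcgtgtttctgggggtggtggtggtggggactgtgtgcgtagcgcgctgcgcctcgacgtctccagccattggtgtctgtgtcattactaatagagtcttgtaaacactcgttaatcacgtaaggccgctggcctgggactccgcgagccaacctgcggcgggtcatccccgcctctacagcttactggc
The Hoxb1 window held 1 such match, which starts 162 bases before the annotated start. As background, the mouse Hoxb1 promoter is known for an autoregulatory element made of Pbx and Hox sites. The Hoxd1 and Cdx2 windows held no match to it on either strand, which says only that these letters are not in these windows. Of the 41 genes, 24 had windows in the reference, 26 windows in all out of 32851. TGATNNAT, searched on both strands, was in 4 of the 26 windows, against 8.85% of all windows. TTTATG, a motif bound by Cdx proteins, was in 5, against 11.9% of all windows, and AGGTCA, the half-site of nuclear receptors such as the retinoic acid receptors, was in 7, against 16.3%. The windows of these genes had a median G+C content of 57.3%, against 52.7% for all windows, and a median CpG ratio (observed over expected) of 0.63, against 0.38.

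All levels below are log2 signals minus the 75th percentile of the same array, so 0 is the 75th percentile. The arrays had a 75th percentile of 326.2 to 595.6 intensity units and, as the scanner software flags it, 52.12% to 63.82% of spots well above background. The lowest level of these genes was -6.7 at EB day 4 and -8.05 in undifferentiated cells, so a level near these values is a bound, and probes are not compared with each other in level. A gene is called where limma's adjusted p is under 0.05, and where one of the groups was not well above background on any array a fold is given as at least N-fold against the lowest signal well above background. Each of undifferentiated cells and EB day 4 was on a slide and scan day of its own, EB day 4 also on another scanner, so differences that involve them cannot be told apart from slide and scan day. EB days 1 and 3 shared a slide, ML days 1 and 3 shared another, and these 8 arrays were scanned on the same day. All 8 listed markers of embryonic stem cells were well above background in every group, with a summed level of 27.8 and 41.2 at EB day 4, against 637 and 731 in undifferentiated cells, in units of the 75th percentile.

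Of the 41 genes, 15 were well above background on both arrays of no group. These were Hoxa10, Hoxa11, Hoxa13, Hoxb8, Hoxc6, Hoxc8, Hoxc10, Hoxc12, Hoxc13, Hoxd8, Hoxd9, Hoxd10, Hoxd11, Hoxd12 and Cdx4, and they were not tested. The set is mostly of high paralogue numbers and of the Hoxc and Hoxd clusters: 8 of 11 Hoxa genes, 9 of 10 Hoxb genes, 3 of 8 Hoxc genes and 4 of 9 Hoxd genes passed, with 2 of the 3 Cdx genes. A group of 8 genes, with Hoxa7, Hoxb3, Hoxb6, Hoxc4 and Cdx2 among them, were well above background in all 6 groups. Another 7, Hoxa2, Hoxa4, Hoxa5, Hoxb13, Hoxd3, Hoxd4 and Cdx1, were so in undifferentiated cells alone, so the filter that let them through favoured a fall elsewhere, and their falls are given as a description. Hoxb1 passed through EB days 3 and 4 alone, Hoxd1 through these and ML day 3, and Hoxd13 through both formats at days 1 and 3. For these genes the filter favoured a rise against undifferentiated cells. Counts of genes detected were 22 of 41 in undifferentiated cells, 12 at EB day 1, 14 at EB day 3, 15 at EB day 4, 14 at ML day 1 and 14 at ML day 3. The Hoxb cluster gave 8 of these in undifferentiated cells, 4 at EB day 1, 5 at EB day 3 and 8 at EB day 4.

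**Figure D1:**
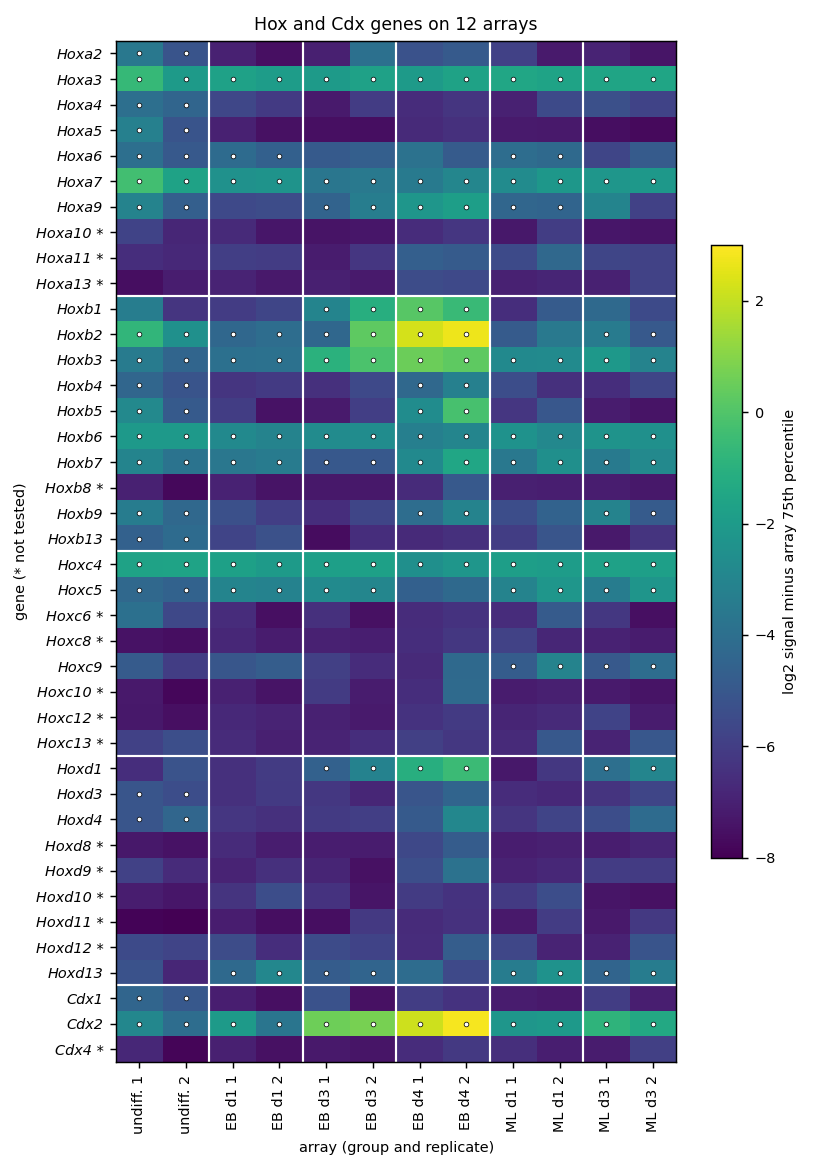
Level of the Hox and Cdx genes reported by name (rows, by cluster and paralogue number) on each of the 12 arrays (columns, by group and replicate), as log2 signal minus the array's 75th percentile, with a dot on both arrays of a group where both were well above background and an asterisk on the 15 genes that were not tested. The 3′ Hoxb genes and Cdx2 are brightest at EB day 4, and 10 of the 15 genes with an asterisk belong to Hoxc or Hoxd.

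Undifferentiated cells had 22 of these genes well above background, with unequal levels on the 2 arrays. These 2 arrays also had the largest shares of all spots well above background, 63.09% and 63.82%. Hoxa5 stood at -3.22 in replicate 1 and -5.14 in replicate 2, Hoxb5 at -2.81 and -4.89, and Hoxb2 at -0.75 and -2.5. Replicate 1 was the higher array for 19 of the 22 genes detected there, by a median of 0.86, and 8 of the 22 were more than 1 log2 unit higher in it, against 0 that were as much higher in replicate 2. Over all 16768 genes detected in that group the shares were 4.84% and 5.47%, with a median difference of 0.03. The genes of this set were thus higher in replicate 1 while genes in general were not. Markers of feeder fibroblasts moved the same way: 16 of the 18 tested were higher in replicate 1 (median difference 1.01), all 18 were well above background in the group, and their summed level was 210 in replicate 1 and 80.3 in replicate 2. That sum ranged from 25 to 80.7 on the other 10 arrays. Dcn, Lox and Mgp were not well above background at EB day 4. The shift was not particular to feeder markers. Mesoderm markers were higher in replicate 1 in 10 of 12 cases (median difference 0.64), neural markers in 8 of 8 (0.31) and posterior body genes in 14 of 18 (0.71). Embryonic stem cell and trophoblast markers were higher there in 2 of 8 (-0.19) and 6 of 12 (-0.03). The part of feeder or other cells in the Hox levels of undifferentiated cells was not tested.

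**Figure D2:**
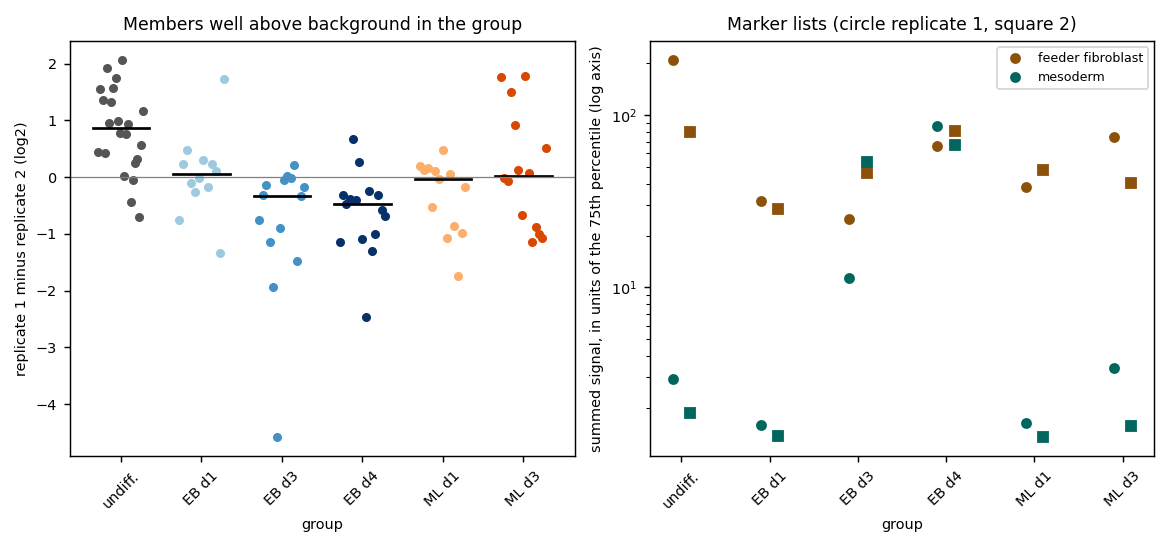
Left, replicate 1 minus replicate 2 (log2) for each Hox or Cdx gene well above background in the group, with the median as a bar; right, the summed level of the feeder fibroblast and mesoderm marker lists on each array (log axis, units of the 75th percentile). The undifferentiated median is 0.86 and the feeder sums are 210 and 80.3, while the mesoderm sums of EB day 3 are 11.4 and 53.2.

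On the first day of differentiation Hoxa7, a trunk gene, fell in both culture formats. Hoxa7, with -2.44 and -2.34 at EB day 1 against -0.32 and -1.65 in undifferentiated cells, stayed detected and fell by 1.4 ± 0.39 (SE) on the log2 scale (adjusted p = 0.0455). The groups did not overlap. That call was lost in 14 of 21 alternatives, with an adjusted p of 0.0601 with the replicate block. Without undifferentiated replicate 1 the change was -0.74. At ML day 1 the call on Hoxa7 was lost in 9 of 21 alternatives, with a change of -0.79 without the same array (adjusted p = 0.1). Hoxa5, a gene of the neck and thoracic trunk, and Cdx1 passed the filter through undifferentiated cells alone, which favoured a lower signal at day 1. Hoxa5 was not well above background in either format at day 1, at least 1.8-fold lower at EB day 1 and at least 1.84-fold lower at ML day 1. Cdx1 was likewise not well above background, at least 1.26-fold lower at EB day 1 and at least 1.29-fold lower at ML day 1.

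At EB day 1, 0 of 26 tested genes rose against undifferentiated cells and 5 fell, where 7.98% of all 17729 genes tested rose, 5.39% fell and 13.4% were called in all. They included Hoxa5, Hoxa7 and Cdx1, and 2 of the 5 passed the filter through undifferentiated cells alone. The median change of the 26 was -1.1, against 0.09 over all genes. At ML day 1, 2 rose and 6 fell, against 11.6% and 6.43% of all genes (18% in all). Those that fell included Hoxa4, Hoxa5, Hoxa7 and Cdx1, and 4 of the 6 passed through undifferentiated cells alone. The pair that rose were Hoxc5, by 1.77 ± 0.39 (adjusted p = 0.0197), and Hoxd13, the most 5′ gene of its cluster, by 3.14 ± 0.71 (adjusted p = 0.0205). Hoxd13 read -3.37 and -2.38 at ML day 1, against -5.21 and -6.82 in undifferentiated cells, where 1 array of 2 was well above background. Its other probe was not well above background in any group on both arrays and read -1.17 on 1 array of EB day 1 against -6.22 on the other. These calls rest on few arrays: fewer genes were called when either array of the day 1 group was left out, in both formats. The share called over all genes fell there as well, so the loss was not particular to this set. Without undifferentiated replicate 1 fewer of these genes were called in both formats, while the share over all genes did not fall. Without undifferentiated replicate 2 both fell at ML day 1, and without either ML day 3 array both rose at EB day 1.

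Between day 1 and day 3 of EB culture the genes that rose were Cdx2 and Hoxb3. Cdx2 read -2.89 and -4.06 in undifferentiated cells, -2.01 and -3.74 at EB day 1, 0.58 and 0.75 at EB day 3 and 2.17 and 2.86 at EB day 4. The arrays of each of EB days 3 and 4 lay above all those of earlier groups. It rose by 3.54 ± 0.55 at EB day 3 against EB day 1 (11.6-fold, adjusted p = 0.011). Hoxb3, an anterior group gene of hindbrain and neck, read -3.41 and -4.4 in undifferentiated cells, -3.92 and -3.91 at EB day 1, -0.99 and -0.1 at EB day 3 and 0.51 and 0.25 at EB day 4. It rose by 3.37 ± 0.41 between EB day 1 and EB day 3 (10.3-fold, adjusted p = 0.00455). These were 2 of 26 genes, against 3.09% of all genes that rose and 2.33% that fell (5.42% in all), and 0 of the 26 fell. Without EB day 1 replicate 2 or EB day 3 replicate 2 the adjusted p of Cdx2 was 0.07 and 0.0885, leaving 1 of 26, and with the mean of both its probes that of Hoxb3 was 0.0696. The share called over all genes fell as well without EB day 1 replicate 2 or EB day 3 replicate 2. Without EB day 3 replicate 1 or either undifferentiated array the count was higher, and the share over all genes slightly so.

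The EB day 3 samples were not alike. Hoxb2, which patterns the hindbrain, read -4.32 in replicate 1 and 0.26 in replicate 2, and Hoxb1, a marker of the primitive streak and later of rhombomere 4 of the hindbrain, read -3.02 and -1.09. Replicate 2 was higher by more than 1 log2 unit for 4 of the 14 genes detected at EB day 3, and replicate 1 for 0. Over all genes detected there, 2.33% were as much higher in replicate 2 and 3.21% in replicate 1. Mesoderm markers moved with it: 1 of 12 was higher in replicate 1, the median difference was -2.2, and the summed level was 85.9 and 67.4 at EB day 4, against 11.4 in replicate 1 and 53.2 in replicate 2 of EB day 3. Of the 12, 9 were well above background on both EB day 3 arrays and none was at background on both, and the part of these cells in the Hox levels was not tested. The EB day 4 arrays were also unequal for this set. Replicate 2 was higher by more than 1 log2 unit for 5 of the 15 genes detected there, and replicate 1 for 0 (median difference -0.48). Over all genes the shares were 1.27% and 0.665%. Of the 12 mesoderm markers, 5 were higher in replicate 1 at EB day 4, with a median difference of -0.11. Hoxb1 was 3.8 ± 1 higher at EB day 3 than at EB day 1, at least 7.87-fold, with an adjusted p of 0.0645.

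**Figure D3:**
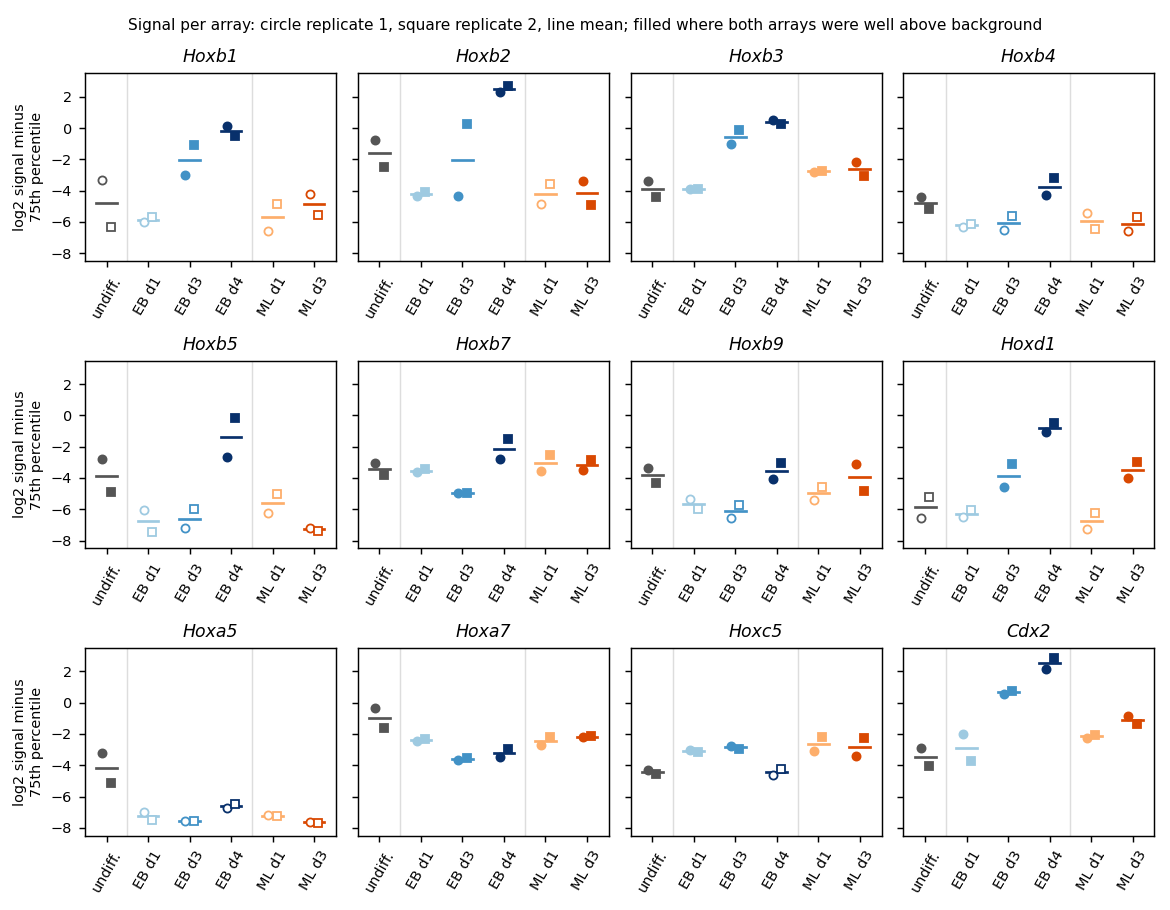
Level of 12 genes on each array (log2 signal minus the 75th percentile; circle replicate 1, square replicate 2, bar the mean of 2 arrays, filled where both arrays were well above background). Cdx2 reads 2.17 and 2.86 and Hoxb2 2.3 and 2.71 at EB day 4, and Hoxa5 is filled in undifferentiated cells only.

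At EB day 4, 5 of the 9 tested Hoxb genes rose against EB day 3. Hoxb5, a gene of the cervical and thoracic trunk, read -2.64 and -0.18 at EB day 4, against -7.21 and -5.97 at EB day 3, where it was not well above background. It rose by 5.18 ± 0.94 on the log2 scale, at least 15.6-fold (adjusted p = 0.0113). Hoxb2 read 2.3 and 2.71 at EB day 4 and rose by 4.54 ± 1.25 (adjusted p = 0.0454) over the 2 unlike EB day 3 arrays. Its call was lost in 11 of 20 alternatives, with an adjusted p of 0.0552 with the replicate block, and without EB day 3 replicate 1 its change was 2.25 (adjusted p = 0.208). The rest of the cluster's increases were smaller, with Hoxb4 at -4.29 and -3.2, against -6.49 and -5.59 (at least 3.11-fold), and Hoxb9 at -4.07 and -3.06, against -6.58 and -5.7 (at least 3.52-fold). Hoxb7 read -2.78 and -1.48 at EB day 4, against -4.97 and -4.99 at EB day 3, and rose by 2.85 ± 0.49 (7.22-fold, adjusted p = 0.00946). In all 5 of these called Hoxb genes the groups did not overlap, which is a description only, since the share over all genes is not given.

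Outside Hoxb, genes that rose included Hoxd1, the most 3′ gene of the Hoxd cluster. It read -1.09 and -0.51 at EB day 4, against -4.6 and -3.12 at EB day 3, and rose by 3.06 ± 0.62 (8.33-fold, adjusted p = 0.0172). Hoxd3 had an adjusted p of 0.0125 but was not well above background on any array of either group, so its change of 1.72 ± 0.32 has no fold. Hoxd4 missed the threshold at 2.14 ± 0.61 (adjusted p = 0.0509), as did Hoxa9 at 1.89 ± 0.82 (adjusted p = 0.161) and Hoxb1 at 1.85 ± 1 (adjusted p = 0.249). Hoxc5 fell by 1.59 ± 0.39 (adjusted p = 0.032), with -4.63 and -4.24 at EB day 4, where it was not well above background, against -2.74 and -2.95 at EB day 3, and that call was lost in 8 of 20 alternatives.

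In this comparison 8 of 26 tested genes rose and 1 fell, against 3.9% of all genes that rose and 8.83% that fell (12.7% in all). The median change of the 26 was 0.95, against -0.09 over all genes, and 22 of the 26 were above 0, against 43.9% of all genes. Hoxa4, Hoxa5, Hoxb13, Hoxd3 and Cdx1 were well above background on no array of either group, yet their means were higher at EB day 4. Hoxa5, for example, had means of -7.57 at EB day 3 and -6.59 at EB day 4. Without the filter on dim probes the median over all genes was 0.27, with 27.2% called. The part of the lowest measurable level, which differed between groups, was not tested. Over the 9 Hoxb genes the median was 2.3 and 8 were above 0. The calls depend on single arrays and on the pooled spread. Fewer of the 26 were called with EB day 3 replicate 1 or either EB day 4 array left out, and the share over all genes fell as well. A fit of these 4 arrays alone called 0 of 26 and 1.35% of all genes. The adjusted p of Hoxb5 was 0.087 and 0.0694 without EB day 3 replicate 1 and EB day 4 replicate 2, and 0.0596 in the fit of the 2 groups alone. None of the 9 called genes changed sign under the alternatives run.

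**Figure D4:**
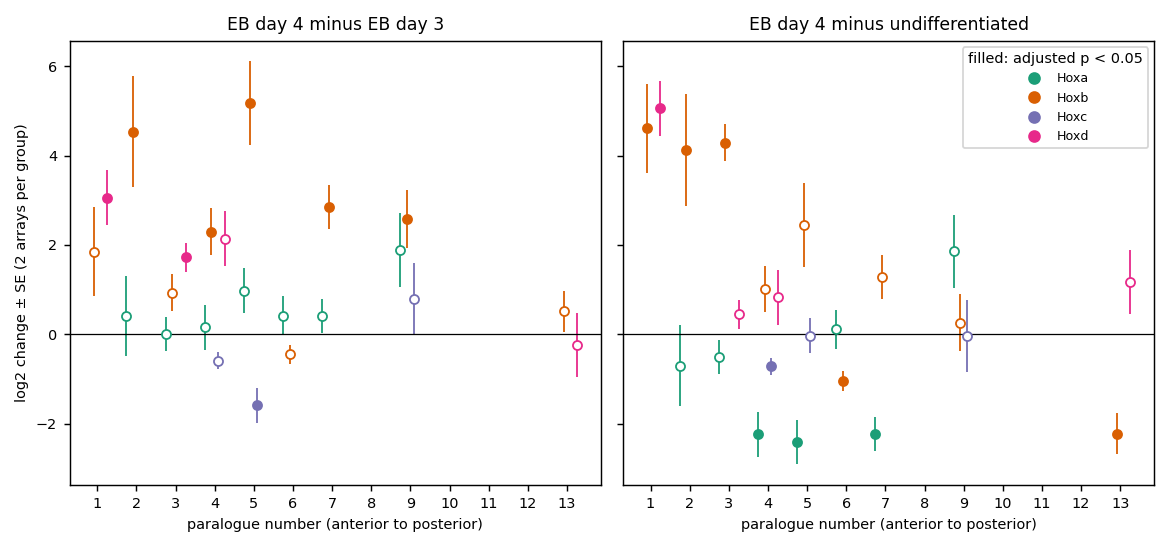
Log2 change with its SE for tested Hox genes reported by name, at EB day 4, against EB day 3 (left) and against undifferentiated cells (right), by paralogue number (1 is the 3′, anterior end) and cluster (colour), filled where adjusted p was under 0.05. Each gene is read by 1 probe, and the second Hoxb6 probe is not shown. Against EB day 3 the filled increases run from paralogue 1 to paralogue 9, mostly in Hoxb. Against undifferentiated cells those shown stop at paralogue 3.

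Set against undifferentiated cells, EB day 4 had higher signal for the 3′ genes and Cdx2. Cdx2 rose by 5.99 ± 0.55 (63.6-fold, adjusted p = 0.000116). Hoxd1, at -1.09 and -0.51 against -6.55 and -5.19 in undifferentiated cells, rose by 5.06 ± 0.62 (adjusted p = 0.000391). Hoxb1, at 0.14 and -0.54 against -3.33 and -6.3, rose by 4.61 ± 1 (adjusted p = 0.00621). For Hoxd1 and Hoxb1 only 1 of the 2 undifferentiated arrays was well above background, so no fold is given for them. Hoxb3 rose by 4.29 ± 0.41 (19.6-fold, adjusted p = 0.00013). Hoxb2, at 2.3 and 2.71 against -0.75 and -2.5, rose by 4.13 ± 1.25 (17.5-fold, adjusted p = 0.0265). None of the 5 pairs of groups overlapped, which is likewise a description without the share over all genes. Hoxd1 and Hoxb1 passed the filter through differentiating groups alone, which favoured a rise, so their increases are given as a description. Cdx2, Hoxd1, Hoxb1 and Hoxb3 were called under every alternative that gave them a value. Their log2 changes were 4.58 to 6.58 for Cdx2, 2.24 to 5.75 for Hoxd1, 2.51 to 6.1 for Hoxb1 and 3.01 to 4.78 for Hoxb3. The call on Hoxb2 was lost without undifferentiated replicate 2 (3.25, adjusted p = 0.143) and without either EB day 4 array (adjusted p = 0.0809 and 0.105).

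The genes that fell were Hoxa4, Hoxa5, Hoxa7, Hoxb6 (by its brighter probe alone), Hoxb13 and Hoxc4. Of these, Hoxa4, Hoxa5 and Hoxb13 passed the filter through undifferentiated cells alone, which favoured a fall. Hoxa7 fell by 2.23 ± 0.39 (4.68-fold lower, adjusted p = 0.00225), with -3.45 and -2.97 at EB day 4 against -0.32 and -1.65 in undifferentiated cells. Hoxa4, Hoxa5 and Hoxb13 were not well above background at EB day 4, and the bounds are small: at least 1.05-fold lower for Hoxa4 and at least 1.07-fold lower for Hoxa5, with none for Hoxb13. With normexp background these 3 falls were -0.07, -0.12 and -0.05 and not called. Those of Hoxb6 (-0.2) and Hoxc4 (-0.22) were not called with it either (adjusted p = 0.414 and 0.307). Hoxc4 read -2.51 and -2.2 at EB day 4 against -1.67 and -1.62 in undifferentiated cells, and its call was lost in 4 of 21 alternatives. The fall of Hoxa7 was called under every alternative that gave it a value. In all, 5 of 26 genes rose and 6 fell, against 18.8% and 22.1% of all genes (40.8% in all), so the counts stood near the background. By the probe that represents each gene, the increases ran from paralogue 1 to paralogue 3. Hoxb4, Hoxb5, Hoxb7 and Hoxb9, which rose against EB day 3, had changes of 1.02, 2.44, 1.28 and 0.26 against undifferentiated cells and were not called. The other Hoxb6 probe, described below, was higher, with -0.86 and 1.4 at EB day 4 against -2.84 and -4.83 in undifferentiated cells.

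At EB day 3 against undifferentiated cells 4 of 26 genes rose and 8 fell, where 13% and 10.7% of all genes did (23.7% in all). Cdx2 rose by 4.14 ± 0.55 (17.6-fold, adjusted p = 0.00151) and Hoxb3 by 3.36 ± 0.41 (10.3-fold, adjusted p = 0.00106), and both were called under every alternative run (log2 changes of 2.96 to 4.72 and of 1.89 to 3.85). Hoxc5 rose by 1.56 ± 0.39 and Hoxd1 by 2.01 ± 0.62, with adjusted p of 0.021 and 0.0452. The genes that fell included Hoxa4, Hoxa5, Hoxa7, Hoxb7, Hoxb9 and Hoxb13, and 4 of the 8 passed the filter through undifferentiated cells alone. Hoxa5, 1 of those 4, was at least 2.29-fold lower, which is given as a description. Hoxa7 fell by 2.63 ± 0.39 (6.21-fold lower) and was called under every alternative that gave it a value. Hoxd1 had an adjusted p of 0.218 without undifferentiated replicate 1 and 0.254 without EB day 3 replicate 2. Hoxb7 had 0.192 and 0.0632 without each undifferentiated array and 0.131 and 0.148 without each EB day 3 array.

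In monolayer culture 2 of 26 genes, Hoxd1 among them, rose between day 1 and day 3. Hoxd1 read -3.99 and -2.98 at ML day 3, against -7.27 and -6.22 at ML day 1, where it was not well above background, and rose by 3.26 ± 0.62 (at least 2.99-fold, adjusted p = 0.0123). The groups did not overlap. The counts of 2 that rose and 0 that fell stand against 5.77% and 6.65% of all genes (12.4% in all). The call on Hoxd1 was lost without ML day 1 replicate 1 (a change of 2.73) and with normexp background (0.46, adjusted p = 0.221). The count moved when any array of these 2 groups was left out, and the share over all genes moved the same way. Hoxa9 and Hoxb9, genes of the thoracic and lumbar trunk, were unequal at ML day 3, with -3.05 and -5.88 for Hoxa9 and -3.08 and -4.86 for Hoxb9. Cdx2 read -0.83 and -1.34 at ML day 3, against -2.23 and -2.06 at ML day 1, a change of 1.05 ± 0.55 (adjusted p = 0.235).

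Against undifferentiated cells, ML day 3 gave 4 increases and 3 decreases among 26 genes, against 12.7% and 10.9% of all genes (23.5% in all). Cdx2 rose by 2.39 ± 0.55 (5.23-fold, adjusted p = 0.0154), Hoxd1 by 2.38 ± 0.62 (adjusted p = 0.0242), Hoxc5 by 1.58 ± 0.39 and Hoxb3 by 1.31 ± 0.41 (adjusted p = 0.0199 and 0.0492). Hoxa5 was at least 2.4-fold lower, Hoxb5 at least 3.02-fold lower and Hoxb13 at least 2.12-fold lower, none of the 3 being well above background at ML day 3, and Hoxa5 and Hoxb13 passed the filter through undifferentiated cells alone. With normexp background none of the 3 falls was called (-0.62, -0.81 and -0.43), and that of Hoxb5 was also lost without undifferentiated replicate 1 (-2.4, adjusted p = 0.142) and without either ML day 3 array (adjusted p = 0.0905 and 0.073). The call on Cdx2 was lost without undifferentiated replicate 2 (a change of 1.8) or ML day 3 replicate 1 (2.13), and that on Hoxb3 in 13 of 21 alternatives. Those on Hoxc5 and Hoxd1 were each lost in 4 of 20, normexp background among them (0.62 and 0.37, adjusted p = 0.0937 and 0.288). Without ML day 3 replicate 1 fewer genes were called, in this set and over all genes.

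Few differences between the culture formats passed the test. EB and ML arrays were on different slides, so a difference between formats on the same day cannot be told apart from slide. At day 1, 0 of 26 genes were called between EB and ML by limma (1 at an unadjusted p under 0.05), against 0.0677% of all genes, 0.00564% being higher and 0.062% lower in EB. At day 3 Hoxb3 was the 1 gene called, against 1.61% of all genes that were higher and 1.7% lower in EB (3.32% in all). It read -0.99 and -0.1 at EB day 3, against -2.15 and -3.06 at ML day 3, a difference of 2.05 ± 0.41 (4.15-fold, adjusted p = 0.0321), and that call was lost in 12 of 22 alternatives, with an adjusted p of up to 0.33. Cdx2 was 1.75 ± 0.55 higher in EB (adjusted p = 0.136), not past the threshold though the groups did not overlap. For the change from day 1 to day 3, EB minus ML, 0 of 26 genes were called (4 at an unadjusted p under 0.05), against 0.243% of all genes, 0.152% with a larger and 0.0902% with a smaller change in EB. Hoxb3 came nearest, with a difference of 3.2 ± 0.59 between the changes (adjusted p = 0.0841), and Cdx2 had 2.48 ± 0.78 (adjusted p = 0.302).

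Probes of the same gene disagreed in Hoxb6. The probe at chr11:96160281-96160340, which represents the gene because it is the brighter on average, read -3.25 and -3.01 at EB day 4, against -2.7 and -2.65 at EB day 3, and stayed between -2.07 and -3.25 on all 12 arrays. The probe at chr11:96162563-96162622, annotated to the gene's RefSeq transcript, read -0.86 and 1.4 at EB day 4, against -6.32 and -4.46 at EB day 3. At EB day 3 it was well above background on 1 array of 2. It rose by 5.66 ± 0.86 (adjusted p = 0.0067) against EB day 3 and by 4.11 ± 0.86 (17.3-fold, adjusted p = 0.00512) against undifferentiated cells, in a fit of every probe. So for Hoxb6 the direction of change at EB day 4 against undifferentiated cells depends on the probe, and it is not counted above among the Hoxb genes that rose.

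Between EB day 1 and EB day 3 the brighter Hoxb3 probe rose by 3.37 ± 0.41. The second Hoxb3 probe changed there by 0.92 ± 0.8 (adjusted p = 0.595), but it was not well above background at EB day 1. It was well above background on both arrays of EB day 4 alone, so the filter favoured a rise there. The timing of its change therefore cannot be read. The second probe read -3.14 and -2.75 at EB day 4, against -7.61 and -5.28 at EB day 3, where 1 array of 2 was well above background. Its rise of 3.5 ± 0.8 (adjusted p = 0.0264) is given as a description. The brighter Hoxb3 probe changed by 0.93 ± 0.41 over that interval (adjusted p = 0.169). The second Hoxb9 probe rose at EB day 4 against EB day 3, as the brighter one did, by 2.46 ± 0.67 (at least 2.46-fold, adjusted p = 0.0445). The second probe named Hoxb2, at chr11:96211860-96211919, is read in the direction opposite to the Hoxb genes, on the minus strand by the files' coordinates. It was well above background at EB day 4 alone, so the filter favoured a rise there, with -2.45 and -2.52 there against -7.07 and -5.67 at EB day 3 and -7.48 and -7.63 in undifferentiated cells. It rose by 3.88 ± 0.38 against EB day 3 (at least 7.44-fold, adjusted p = 0.00204) and by 5.07 ± 0.38 against undifferentiated cells (at least 9.19-fold, adjusted p = 5.22e-05).

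**Figure D5:**
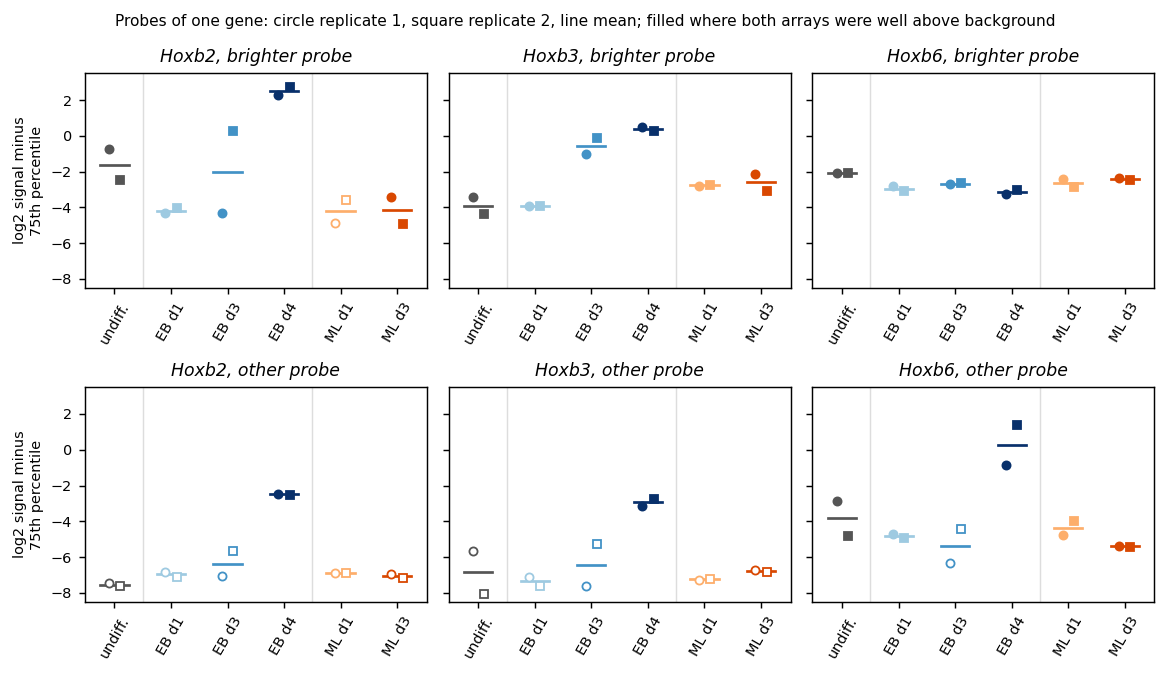
Level on each array of both probes of Hoxb2, Hoxb3 and Hoxb6 (log2 signal minus the 75th percentile; circle replicate 1, square replicate 2, bar the mean of 2 arrays, filled where both arrays were well above background). The other Hoxb6 probe reads -0.86 and 1.4 at EB day 4 while the brighter one stays between -2.07 and -3.25 throughout.

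A further 9 probes lie within the spans of the clusters under other names. Of these, 2 were well above background on both arrays of undifferentiated cells and of no other group, for Hoxaas2 and 9530018H14Rik, and they are named here after their values were seen. The Hoxaas2 probe is read on the plus strand at chr6:52119107-52119166, opposite to the Hoxa genes. It read -6.97 and -7.5 at EB day 1, against -4.78 and -4.34 in undifferentiated cells, and the choice of this probe fixed that direction. At EB day 4 it read -5.75 and -5.3, below the background threshold.

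Genes that act with or around the Hox genes were counted in the same fits. Of all genes tested, 3.09% rose and 2.33% fell at EB day 3 against EB day 1, 5.77% and 6.65% at ML day 3 against ML day 1, 3.9% and 8.83% at EB day 4 against EB day 3, and 18.8% and 22.1% at EB day 4 against undifferentiated cells. Of 18 posterior body and tail bud genes, 10 rose at EB day 3 against EB day 1 and 0 fell, with a median change of 2.4 against -0.08 for all genes. Evx1, a homeobox gene beside the Hoxa cluster that marks the posterior primitive streak, rose by 5.72 ± 0.54 (adjusted p = 0.00205). Cyp26a1, an enzyme that breaks down retinoic acid, rose by 5.67 ± 0.68 (adjusted p = 0.00388), and T (brachyury), a factor of the primitive streak and tail bud, by 4.39 ± 0.63 (adjusted p = 0.00772). At ML day 3 against ML day 1, 8 of 18 rose and 0 fell, with Fgf8, a signal of the tail bud, up by 4.56 ± 0.46 (adjusted p = 0.00101). Between EB day 4 and EB day 3, where the Hoxb genes rose, 0 of the 18 rose and 2 fell, with a median of -0.05 against -0.09 for all genes. Mesoderm markers rose over the same interval in 4 of 12 cases, with 0 that fell, and against undifferentiated cells 11 of 12 rose at EB day 4 and 1 fell. Trophoblast markers, of interest because Cdx2 also marks trophectoderm, rose in 5 of 12 and fell in 5 of 12 at EB day 4 against undifferentiated cells, beside 18.8% and 22.1% of all genes. Their summed level was 298 and 373 at EB day 4, against 33.4 and 50 in undifferentiated cells, most of it from Krt8 and Krt18, keratins of simple epithelia in general. Without these 2 the sum was 16.9 and 20 at EB day 4, against 7.75 and 8.99 in undifferentiated cells. The part of these cells in the Cdx2 level was not tested.

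Retinoic acid genes were mixed. Of 17 tested, 2 rose and 3 fell at EB day 4 against EB day 3, beside 3.9% and 8.83% of all genes. Aldh1a2, which makes retinoic acid in the trunk mesoderm, rose by 3.41 ± 0.36 (adjusted p = 0.00207) and Crabp1, which binds it in the cytoplasm, by 2.14 ± 0.54 (adjusted p = 0.0337). Dhrs3, which turns retinal back to retinol, fell by 2.05 ± 0.51 (adjusted p = 0.0324). Rarb, a receptor that is itself a retinoic acid target, was not well above background at EB day 1 and rose at EB day 3, at least 2.34-fold (adjusted p = 0.0176), one of 3 genes that rose there while 1 fell. Among the 9 TALE cofactors, Meis1 was the 1 that rose at EB day 4 against EB day 3, at least 6.3-fold (adjusted p = 0.0111), reading -3.02 and -2.26 at EB day 4 against -5.49 and -5.27 at EB day 3, where it was not well above background. At ML day 3 against ML day 1, 2 of 9 rose, Meis3 by 1.6 ± 0.3 and Pbx3 by 1.13 ± 0.31 (adjusted p = 0.0117 and 0.0461).

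Of 22 Polycomb and trithorax genes, 0 rose and 1 fell at EB day 4 against EB day 3, the Polycomb gene Phc1 by 1.13 ± 0.32 (adjusted p = 0.049). Against undifferentiated cells 8 rose and 7 fell at EB day 4, beside 18.8% and 22.1% of all genes, with Kdm6b, a demethylase of the Polycomb mark, up by 2.37 ± 0.33 (adjusted p = 0.000678) and Phf19, a Polycomb partner, down by 2.14 (-2.14 ± 0.4, adjusted p = 0.00318). The 18 genes that flank the clusters served as neighbours outside them. At EB day 4 against EB day 3, 1 of 18 rose and 0 fell: Skap1, next to Hoxb1, rose by 2.99 ± 0.67 (adjusted p = 0.0241), with a median of 0.13 over the list against -0.09 over all genes. Of the other homeobox genes outside the clusters (ParaHox, Evx and Mnx), 4 of 6 were tested, and Gsx1 was the 1 that fell there, by 1.46 ± 0.21 (adjusted p = 0.00487), while 0 rose. Neural markers rose in 1 of 8 and visceral and primitive endoderm markers in 1 of 10 in the same comparison, with 0 that fell in both.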

How the data were processed

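Total RNA was converted to Cy3-labelled cRNA and hybridised to 12 arrays, 1 sample each. The scanner files hold intensity per spot, background-subtracted by Agilent Feature Extraction per the file headers, and the other values used are the software's flags per the file headers. The submitters' processing notes give Feature Extraction 9.5.1.1, while the headers give 10.5.1.1, 10.7.3.1 and 10.7.1.1. The deposited value table, also intensity, was used as an alternative.

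The processed signal was taken to log2, and the 75th percentile of the array's 43379 non-control spots was subtracted. Spots marked as outliers were left out (51 to 172 per array), no spot was saturated, and replicate spots were averaged. Probes entered the analysis when some group had both its arrays well above background (26176 of 41142), and each gene was represented by its brightest kept probe (17729 genes). Limma 3.58.1 in R 4.3.3 (data.table, version 1.17.8) fitted 6 group means to 12 arrays, with 11 comparisons and Benjamini-Hochberg adjustment over all genes, and was tested on simulated data. The gene set, the lists and the rule for naming genes (every Hox and Cdx gene, and up to 4 called genes per list) were chosen with earlier results of these data known. Some genes are in the counts but are not reported here by name. Whether the same clone links groups is not stated, so the replicate numbers were not used as pairing in the main fit. Clone differences correlated between -0.155 and 0.226, which cannot decide the question, since each difference rests on single arrays. Alternatives were the authors' values, quantile normalization, normexp background (offset 50), a strict filter on dim probes or none, the mean of a gene's probes, every probe fitted, a replicate block, a trended prior, the compared groups alone, the 8 arrays of scan day 2 alone, and leaving out each array. Plots used Python 3.11.15 and matplotlib 3.10.9. The number of arrays limits the precision.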

Additional observations from a re-analysis of the deposited data

How the results depend on the processing

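Counts of called Hox and Cdx genes moved with single arrays, the filter on dim probes, normexp background and the fit of the compared groups alone. With normexp background 2 genes were called at EB day 1 against undifferentiated cells (5 in the main analysis), 4 at ML day 1 (8), 5 at EB day 3 (12) and 2 at ML day 3 (7), and 1 at ML day 3 against ML day 1 (2) and 2 at EB day 3 against ML day 3 (1). Over all genes normexp called 13.9%, 17.5%, 22.9%, 24.4%, 13.5% and 3.36% in the same order. The main analysis called 13.4%, 18%, 23.7%, 23.5%, 12.4% and 3.32%. Normexp with an offset shrinks low signals. The falls of Hoxa4, Hoxa5, Hoxb6, Hoxb13 and Hoxc4 at EB day 4 against undifferentiated cells were not called with it. Without the filter, which tests more genes, the counts were 2 at EB day 1 and 19 at EB day 4 (11) against undifferentiated cells. There 6.24% and 48.1% of all genes were called, against 13.4% and 40.8% in the main analysis. At EB day 4 against EB day 3 the count was 15 (9), with 27.2% of all genes (12.7%). At EB day 3 against ML day 3 it was 0, with 1.34% of all genes (3.32%). The strict filter, which tests fewer genes, gave 3, 2, 5, 3 and 5 for EB day 1, ML day 1, EB day 3, ML day 3 and EB day 4 against undifferentiated cells, 1 at ML day 3 against ML day 1 and 3 at EB day 4 against EB day 3. Over all genes the strict filter called 17%, 23.4%, 25.3%, 25.6%, 39.6%, 13.6% and 11.9% in the same order. The groups compared alone gave 2 at ML day 1 against undifferentiated cells and 1 at ML day 3 against ML day 1. They gave 0 at EB day 4 against EB day 3 and 0 at EB day 3 against ML day 3. Over all genes these fits called 1.57%, 3.78%, 1.35% and 0%. For EB day 3 against EB day 1 (2) the count was 1 with the mean of a gene's probes, 4 with the replicate block, 4 with the trended prior and 4 on scan day 2 alone, and for EB day 3 against ML day 3 it was 0 with the mean of a gene's probes, 2 with the trended prior and 2 on scan day 2 alone. Over all genes the shares for EB day 3 against EB day 1 were 5.5%, 5.12%, 6.1% and 4.58% in that order. For EB day 3 against ML day 3 they were 3.31%, 3.89% and 2.54%. The replicate block changed no other count by over 1.5 times. Leaving out each array in turn gave counts of 0 to 9 at EB day 1, 0 to 10 at ML day 1, 8 to 12 at EB day 3, 4 to 10 at ML day 3 and 10 to 12 at EB day 4 against undifferentiated cells. It gave 1 to 5 at EB day 3 against EB day 1, 0 to 3 at ML day 3 against ML day 1, 0 to 11 at EB day 4 against EB day 3, 0 to 0 at EB day 1 against ML day 1, 0 to 2 at EB day 3 against ML day 3 and 0 to 0 for the difference between the changes. Hoxb6 at EB day 4 against undifferentiated cells reversed to 1.53 (adjusted p = 0.0289 by limma) with the mean of its probes, which move in opposite directions. The cause of the other shifts was not tested, and low signal over background limits most of these genes.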
